A study of Mus musculus with 27 samples.

Results

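The genes described here are 10 components of insulin and insulin-like growth factor (IGF) signalling, namely the ligand Igf1, the binding proteins Igfbp3, Igfbp4 and Igfbp5, the receptors Insr and Igf1r, the adaptors Irs1 and Irs2, the kinase subunit Pik3r1 and the transcription factor Foxo1. They were chosen by gene symbol, with earlier results of these data known. On the array 12 of the 28853 probe sets carried 1 of these symbols, and all 10 genes were among the 19938 genes tested. No filter on low values was applied, so every member was tested.

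Insulin and IGF1 bind related receptor tyrosine kinases, which phosphorylate the insulin receptor substrates. The substrates recruit phosphatidylinositol 3-kinase, and the kinase AKT downstream of it keeps FOXO transcription factors out of the nucleus. In preadipocytes this pathway is a main input to fat cell differentiation, and high insulin can act through both receptors.

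RNA was taken from 3T3-L1 cells, mouse preadipocyte-like fibroblasts that a hormone mixture converts to fat cells, and was hybridised to 27 Affymetrix mouse gene arrays in 9 groups of 3. Vector cells carried the empty pMIG vector and were collected at 0, 0.5, 1, 2, 4, 8 and 48 h; cells carrying the Flag-ISL1 construct were collected at 0 and 48 h. ISL1 is a LIM homeodomain transcription factor. Serum was 10% and CO2 10% for all groups, those at 0 h included. The mixture went on 2 days after confluence. It held 350 nM insulin, 0.5 mM isobutylmethylxanthine (IBMX, which raises cyclic AMP), 250 nM dexamethasone (a glucocorticoid) and 400 nM biotin. The groups at 0 h were taken before it was added. Insulin was never given alone, so its part cannot be told apart from that of the other agents or of the fresh medium. The labels do not say whether the ISL1 cells were a clone or a pool. The samples at 0 h, at 0.5 to 8 h and at 48 h were numbered in separate blocks in the deposit. The labels name no batch, and a difference between these blocks could not be told apart from time. Per the series' design text the 3 samples of a group were biological replicates; the number of arrays limits the precision, and p-values measure the spread between these samples.

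The signal of Isl1, the gene of the construct, was read first. On the log2 scale its mean at 0 h was 7.34 ± 0.157 (SD, n = 3) for the vector and 12.62 ± 0.018 for the construct. In vector cells it rose by 1.26 at 2 h (mean 8.59, limma adjusted p = 5.42e-10) and stood at 8.29 at 4 h and 8.02 at 8 h. At 48 h it went against the labels: the 3 arrays labelled vector gave 12.79, 12.76 and 12.72, and the 3 labelled ISL1 gave 7.48, 8.01 and 7.47. No array was reassigned. Both 48 h groups are called by their labels throughout and are set against both 0 h groups. Fibroblast and preadipocyte markers were high (7 genes, mean log2 signal 13.3 in vector cells at 0 h). The 9 adipocyte markers measured already had a mean of 10.66 in vector cells at 0 h, and 8.61 in ISL1 cells at 0 h. Group means were 5.90 to 9.33 for 5 blood cell markers, 6.46 to 7.98 for 4 endothelial, 6.62 to 7.90 for 4 epithelial and 7.14 to 8.59 for 4 muscle markers. Ptprc stayed at 6.17 to 6.33 and Epcam at 6.62 to 6.87, whereas Cd68 went from 8.31 at 0 h to 9.33 at 4 h in vector cells and Cdh5 from 7.17 at 0 h to 7.98 at 8 h. In bulk RNA, fewer cells of a type and less RNA per cell cannot be told apart.

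The stretches upstream of Irs1 and Irs2 are shown because these 2 adaptor genes moved furthest, and in opposite directions. Each run is the 250 bases before the annotated start in RefSeq's GRCm38.p6 promoter table, 5′ to 3′ along the gene. Irs1 lies on the minus strand of chromosome 1 (chr1:82291440-82291689) and Irs2 on the minus strand of chromosome 8 (chr8:11008930-11009179). Capitals mark GGGCGG (the SP1 box), TGACG (the core of a cyclic AMP response site) and CACGTG (an E-box), each on either strand.
Irs1: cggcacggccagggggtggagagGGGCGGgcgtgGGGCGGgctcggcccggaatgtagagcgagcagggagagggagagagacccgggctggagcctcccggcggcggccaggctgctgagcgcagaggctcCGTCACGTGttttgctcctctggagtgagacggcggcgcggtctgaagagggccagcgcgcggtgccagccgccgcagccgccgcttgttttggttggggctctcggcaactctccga
Irs2: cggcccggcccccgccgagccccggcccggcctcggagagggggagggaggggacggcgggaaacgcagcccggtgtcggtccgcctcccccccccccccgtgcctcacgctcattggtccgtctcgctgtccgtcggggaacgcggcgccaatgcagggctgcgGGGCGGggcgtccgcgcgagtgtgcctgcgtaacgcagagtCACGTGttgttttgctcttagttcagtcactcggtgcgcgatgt
The longest runs the 2 stretches shared were 2 of 10 bases: gtcacgtgtt, at position -117 from the Irs1 start and -46 from the Irs2 start, and tgttttgctc, at -111 and -37. The first holds the E-box, a motif added after the sequences were seen, and in Irs1 the E-box overlaps a TGACG match on the other strand. In the table's 300-base windows, 9 of the 10 genes were matched, with 10 promoters. CACGTG was in 2 of these 10, those of Irs1 and Irs2, and in 7.15% of all 32851 promoters. TGACG was in 2 (Irs1 and the second Pik3r1 promoter; 20.8% of all) and GGGCGG in 5 (35.7%). The FOXO core GTAAACA (3.65% of all), the full cyclic AMP element TGACGTCA (1.79%), the glucocorticoid receptor motif AGAACA (19.0%) and the C/EBP palindrome TTGCGCAA (0.183%) were in none. A match is a string of letters, not a bound site, and a missing match says only that these letters are not in the window.

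Over the first 8 h in vector cells, the 2 substrate genes diverged while the receptors moved less than either of them. Irs2 rose within 0.5 h and was 5.44-fold higher at 2 h, and Irs1 fell 8.12-fold by 4 h. Igf1 did not pass the test to 2 h and fell 2.82-fold by 8 h, while Igfbp4 rose from 2 h on. Pik3r1 and Foxo1 were highest at 2 h. An F test over the vector groups to 8 h (limma, Benjamini-Hochberg adjustment over 19938 genes, threshold 0.05) called 9 of the 10 members, beside 51.7% of all genes; Igfbp5 was not called (adjusted p = 0.133). The median span of the group means was 0.66 log2 units for the members and 0.32 for all genes. Irs1 spanned 3.02, Irs2 2.44, Igf1r 0.61 and Insr 0.47. All genes include dim ones, while every member but Igfbp5 had a mean signal above at least 78.2% of genes. The members were also chosen with earlier results known, so these figures do not test whether the pathway responds more than other expressed genes.

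**Figure D1:**
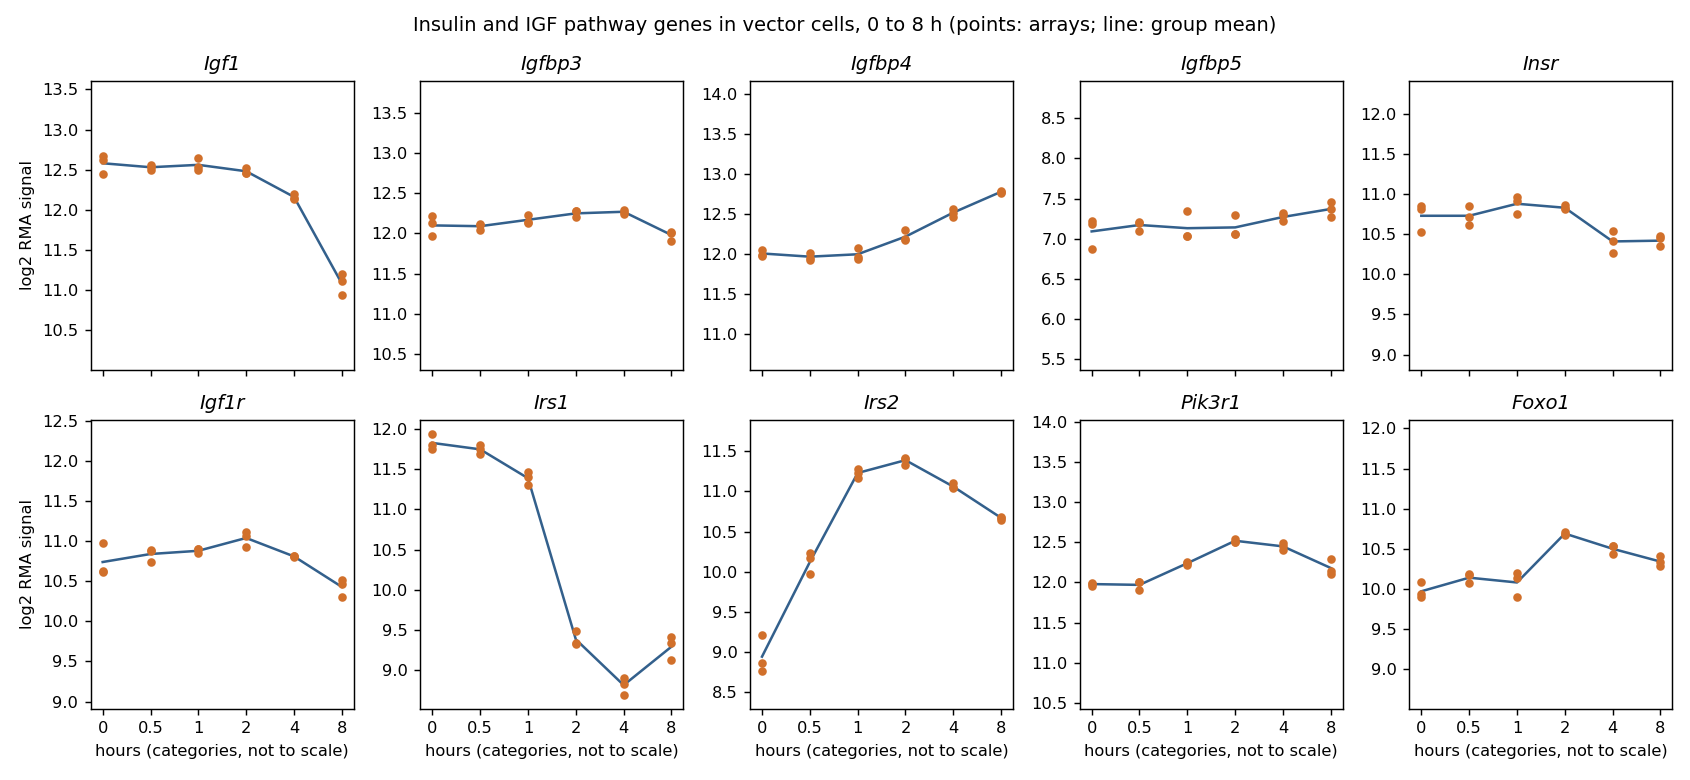
Log2 RMA signal (vertical axes, each spanning the same range) of the 10 genes against hours in the mixture (horizontal axes, categories not to scale) in vector cells, with a point per array and a line through the means of 3 arrays. Irs1 drops and Irs2 climbs by 2 h, Igf1 falls at 4 and 8 h, and the means of Insr, Igf1r, Igfbp3, Igfbp5 and Pik3r1 each stay within a span of 0.61.

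The number of members called grew with time, as it did for all genes. Against 0 h, 1 member was higher and 0 lower at 0.5 h (1.28% of all genes called), 2 higher and 1 lower at 1 h (7.07%), and 5 higher and 1 lower at 2 h (28.3%). At 4 h 4 were higher and 3 lower (40.1%), and at 8 h 5 were higher and 4 lower (46.1%). These comparisons share the 0 h arrays. The arrays of the 2 groups did not overlap for 1, 3, 5, 8 and 9 members at these 5 times. Of all genes this held for 14.7%, 17.5%, 40.1%, 53% and 50.8%. Between neighbouring times, 3 members were called from 0.5 to 1 h (3.6% of all genes), 4 from 1 to 2 h (20.7%), 5 from 2 to 4 h (28.0%) and 7 from 4 to 8 h (23.9%).

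Igf1, the secreted ligand, read 12.45, 12.67 and 12.62 at 0 h, 12.52, 12.46 and 12.46 at 2 h, 12.14, 12.15 and 12.20 at 4 h, and 10.94, 11.20 and 11.11 at 8 h. The 4 h and 8 h arrays all lay below every 0 h array, and the 2 h arrays overlapped them. Against 0 h it fell by 0.42 ± 0.0675 (log2, SE) at 4 h and by 1.50 ± 0.0675 at 8 h (limma adjusted p = 1.05e-05 and 9.01e-16). At 2 h the difference was -0.10, with a 95% interval of -0.24 to 0.04; under quantile normalization it was -0.17 and passed (adjusted p = 0.0236).

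Among the binding proteins, which hold IGFs in the fluid around cells, Igfbp4 rose, whereas Igfbp3 did not pass the test against 0 h at any time to 8 h with the values as deposited. Igfbp4 read 12.05, 11.99 and 11.98 at 0 h, 12.19, 12.30 and 12.18 at 2 h, 12.57, 12.47 and 12.51 at 4 h, and 12.78, 12.77 and 12.79 at 8 h. From 2 h on, each time's arrays lay above all those of the time before. Against 0 h it rose by 0.22 ± 0.0649 at 2 h, by 0.51 at 4 h and by 0.77 at 8 h (limma adjusted p = 0.0119, 2.68e-07 and 1.6e-10). The 2 h call was lost without replicate 2 of that group (0.18, adjusted p = 0.0783) and under quantile normalization (0.13, adjusted p = 0.123). Without that array the step from 1 to 2 h was lost too (0.19, adjusted p = 0.0803). Igfbp3 group means ran from 11.98 to 12.27; the step from 4 to 8 h fell by 0.29 ± 0.0768 (adjusted p = 0.00613). Its 4 h difference of 0.16 from 0 h (adjusted p = 0.0952) was called under median centring (0.26, adjusted p = 0.00801), in the fit without the 48 h arrays (adjusted p = 0.0458) and without vector 0 h replicate 1 (0.22, adjusted p = 0.0393). Its 2 h difference of 0.15 passed under median centring (0.23, adjusted p = 0.0273), and its 8 h difference of -0.12 under quantile normalization (-0.22, adjusted p = 0.00538). Igfbp5 had the lowest signal, with group means of 7.09 to 7.37. Its 4 h difference of 0.19 passed under median centring (0.28, adjusted p = 0.0154). Its rise of 0.28 ± 0.0981 at 8 h (adjusted p = 0.0214) was lost without vector 0 h replicate 3 (0.17, adjusted p = 0.185) or vector 8 h replicate 1 (0.23, adjusted p = 0.0971).

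The receptor genes changed far less than the adaptors, by -0.32 to 0.30 from 0 h. Insr, the insulin receptor, read 10.82, 10.53 and 10.85 at 0 h, 10.26, 10.54 and 10.42 at 4 h, and 10.35, 10.48 and 10.45 at 8 h. The 4 h arrays overlapped the lowest 0 h array and the 8 h arrays did not. It fell by 0.32 ± 0.0876 at 4 h and by 0.31 at 8 h (limma adjusted p = 0.00346 and 0.005). A second Insr probe set gave the same direction, -0.26 at 4 h and -0.45 at 8 h (adjusted p = 0.0125 and 5.29e-05 in the fit of every probe set). Igf1r, the IGF1 receptor, read 10.98, 10.61 and 10.63 at 0 h, 11.07, 10.93 and 11.12 at 2 h, and 10.47, 10.52 and 10.30 at 8 h. The first 0 h array overlapped the 2 h group, and the 8 h arrays lay below all 0 h arrays. Its difference from 0 h was 0.30 ± 0.0946 at 2 h and -0.31 at 8 h (adjusted p = 0.0172 and 0.00917). Single arrays decided both calls. The 2 h value was 0.23 (adjusted p = 0.113) without vector 0 h replicate 2, 0.24 (0.102) without replicate 3, 0.29 (0.0561) without vector 2 h replicate 1 and 0.26 (0.0788) without its replicate 3. The 8 h value was -0.18 (adjusted p = 0.111) without vector 0 h replicate 1 and -0.24 (0.0667) without vector 8 h replicate 3.

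Irs2, the adaptor that rose, read 9.21, 8.76 and 8.86 at 0 h, 10.23, 9.97 and 10.17 at 0.5 h, 11.17, 11.23 and 11.28 at 1 h, and 11.40, 11.33 and 11.42 at 2 h. It then stood at 11.10, 11.05 and 11.04 at 4 h and 10.68, 10.65 and 10.67 at 8 h. Every later array lay above every 0 h array. The log2 difference from 0 h was 1.18 ± 0.0903 at 0.5 h (limma adjusted p = 4.64e-10), 2.28 at 1 h, 2.44 at 2 h (2.35e-17), 2.12 at 4 h and 1.73 at 8 h. Irs2 was the only member called at 0.5 h. The step from 1 to 2 h did not pass (0.16, 95% interval -0.03 to 0.34), and the steps to 4 h and 8 h fell by 0.32 and 0.40 (adjusted p = 0.00759 and 0.00157).

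Irs1, the adaptor that fell, read 11.94, 11.76 and 11.80 at 0 h, 11.30, 11.47 and 11.40 at 1 h, 9.32, 9.33 and 9.48 at 2 h, 8.83, 8.90 and 8.69 at 4 h, and 9.41, 9.33 and 9.12 at 8 h. All arrays from 1 h on lay below the 0 h arrays, and the 4 h arrays were below those of every other time. It fell by 0.44 ± 0.0849 at 1 h (limma adjusted p = 0.000797), by 2.45 at 2 h (5.89e-18), by 3.02 at 4 h (7.91e-20) and by 2.54 at 8 h. Most of the fall came in 1 step, -2.01 between 1 and 2 h, and from 4 to 8 h it rose by 0.48 (adjusted p = 0.000103). The step of -0.36 from 0.5 to 1 h was lost without vector 0.5 h replicate 3 (-0.33, adjusted p = 0.0719) or vector 1 h replicate 1 (-0.32, adjusted p = 0.0712). A second, dimmer Irs1 probe set fell less, by 0.40 at 2 h and 0.39 at 4 h (adjusted p = 0.0219 and 0.0172 in the fit of every probe set). In that fit it did not pass at 1 h (-0.10, adjusted p = 0.89) or at 8 h (-0.25, adjusted p = 0.114). Averaged over both probe sets, the 1 h difference was -0.27 (adjusted p = 0.0773).

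Pik3r1, which encodes regulatory subunits of phosphatidylinositol 3-kinase, read 11.96, 11.98 and 11.99 at 0 h, 12.22, 12.24 and 12.25 at 1 h, 12.54, 12.51 and 12.51 at 2 h, and 12.10, 12.29 and 12.14 at 8 h. All of these later arrays lay above the 0 h arrays. It rose by 0.26 ± 0.0579 at 1 h, 0.54 at 2 h, 0.47 at 4 h and 0.20 at 8 h (limma adjusted p = 0.00351, 3.14e-08, 1.37e-07 and 0.0059). The 8 h call was lost without vector 8 h replicate 2 (0.14, adjusted p = 0.0533), under quantile normalization (0.11, adjusted p = 0.0762) and in the fit of those 2 groups alone (adjusted p = 0.0742). The call was also lost for the step from 0.5 to 1 h (0.27), without vector 0.5 h replicate 2 (0.24, adjusted p = 0.0535). In limma fits of the 2 groups alone, this step (adjusted p = 0.151) and the rise at 1 h from 0 h (adjusted p = 0.105) did not pass. Foxo1, a transcription factor that AKT restrains, read 10.08, 9.94 and 9.90 at 0 h, 9.90, 10.13 and 10.20 at 1 h, and 10.71, 10.67 and 10.69 at 2 h. The 1 h arrays overlapped the 0 h arrays and the 2 h arrays stood clear of both. It rose by 0.71 ± 0.0811 at 2 h and was 0.52 and 0.37 above 0 h at 4 and 8 h (adjusted p = 8.4e-08, 5.46e-06 and 0.000471).

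Markers moved over the same times. Of 9 adipocyte markers measured, 4 were lower at 2 h and 8 at 8 h (median -0.44). Among 7 fibroblast and preadipocyte markers 5 were lower at 8 h. Of all genes, 17.5% were lower at 2 h and 21.9% at 8 h (median 0.071). The part of the markers in the members' changes was not tested.

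Across the 9 group means the member profiles were compared as a description, since the means share arrays and treatments. Pik3r1 and Foxo1 had a Pearson r of 0.95, Igf1 and Igf1r 0.91, and Irs1 and Irs2 -0.49. For the members spanning at least 1 log2 unit in vector cells, the likest of 4188 genes over the 9 means were Cebpb (r = 0.991) and Nfil3 (0.98) for Irs2, Rab9 (0.977) and Armcx1 (0.974) for Irs1, and Adgrl3 (0.994) and Slc16a4 (0.992) for Igf1. Cebpb, an early adipogenic transcription factor, went from 9.13 at 0 h to 11.92 at 2 h and 11.15 at 8 h.

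The wider pathway was read from 5 lists with 78 genes measured of 83 entries. Over these lists 3 genes were called at 0.5 h, 10 at 1 h, 38 at 2 h, 50 at 4 h and 54 at 8 h, the last being 69.2% beside 46.1% of all genes. The lists too were chosen with earlier results of these data known, so this contrast is a description and not a test. At 8 h, 3 of 13 ligands, receptors and binding proteins were higher and 5 lower (median 0.03, all genes 0.071). Stc1, an inhibitor of the pappalysins that cleave IGF-binding proteins, fell by 1.83 ± 0.0668, and Igf2r, the receptor that clears IGF2, by 0.61. Of 15 adaptor and kinase genes 4 were higher and 6 lower (median -0.01). Shc1, an adaptor to the Ras pathway, rose by 0.73, and the regulatory subunit gene Pik3r3 fell by 1.01 and the catalytic subunit gene Pik3ca by 0.77. Of 16 inhibitors 5 were higher and 6 lower (median -0.08). Phlpp1, an AKT phosphatase, rose by 1.13 and Socs3, which blocks receptor signalling, by 0.81, while Pik3ip1, an inhibitor of the kinase, fell by 1.15.

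Of 18 AKT, mTOR and effector genes, 6 were higher and 6 lower at 8 h (median -0.01). Tbc1d4, an AKT substrate that controls glucose transporter traffic, rose by 1.30 ± 0.0957, and Akt2 fell by 0.72. Sgk1, a kinase related to AKT, was the list's 1 call at 0.5 h, with a rise of 1.05 ± 0.0612. Of 16 genes linked to FOXO factors, 3 were higher and 10 lower at 8 h (median -0.50, all genes 0.071). Sesn3 fell by 1.70, Ccng2 by 1.64 and Txnip by 1.18, and Sod2 rose by 1.12 and Bcl6 by 1.01. The list did not move one way early: at 1 h 5 were higher and 1 lower, with Pdk4, a brake on glucose oxidation, up by 1.30 and Ccng2 down, a difference of -0.46.

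**Figure D2:**
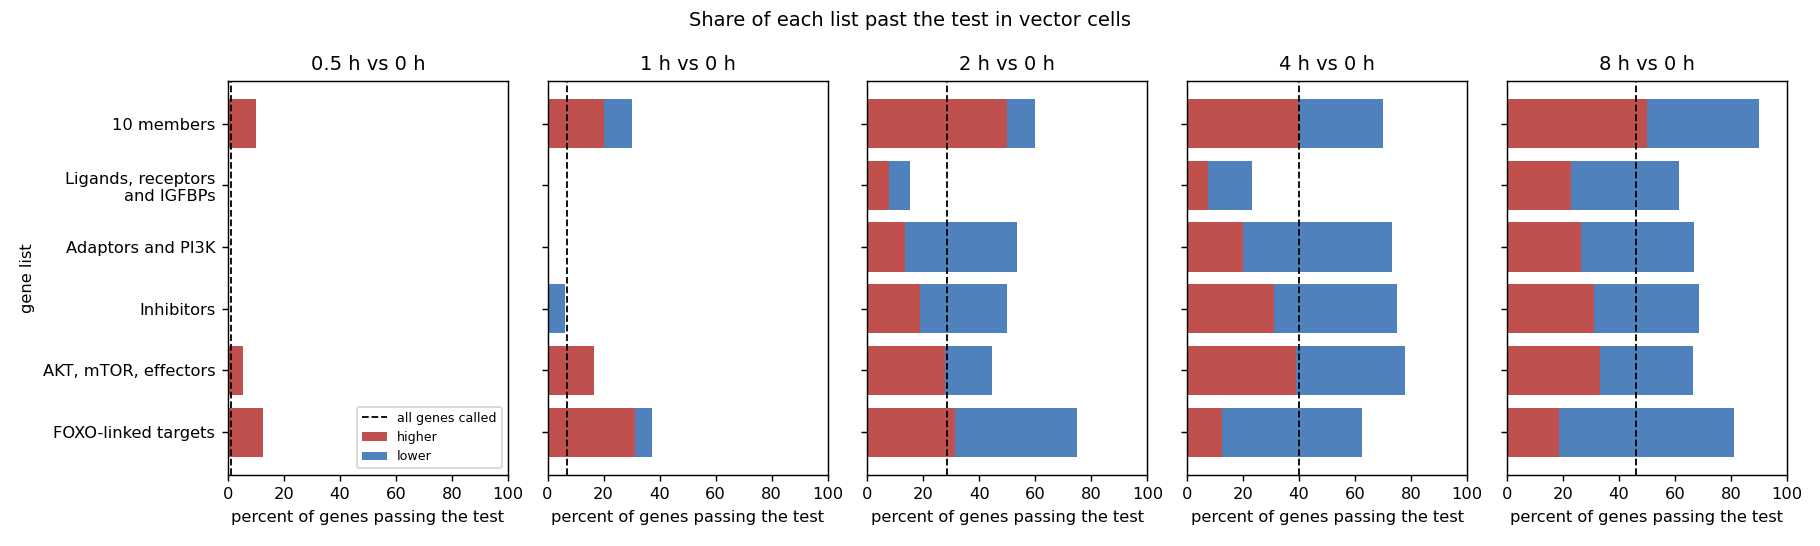
Percent of the genes in each list that passed the test against 0 h in vector cells (horizontal axes), higher in red and lower in blue, for the 10 members and 5 wider lists, with a dashed line at the percent of all genes called. The share of FOXO-linked genes that were lower grows to 10 of 16 at 8 h, and the ligand and receptor list has 0 calls at 0.5 and 1 h.

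Before the mixture was added, ISL1 cells had less signal than vector cells for most of these genes. In the comparison at 0 h, 0 members were higher and 8 lower, beside 25.7% of all genes called, and the members' median difference was -0.58 against -0.008 for all genes. Igfbp3 read 10.70, 10.57 and 10.60 in ISL1 cells against 12.22, 12.13 and 11.97 in vector cells, and Irs1 10.49, 10.43 and 10.43 against 11.94, 11.76 and 11.80. Igf1 read 11.58, 11.49 and 11.47 against 12.45, 12.67 and 12.62. For these 3 genes all ISL1 arrays lay below all vector arrays. The 2 groups did not overlap for 8 members and for 42.8% of all genes. Igfbp3 was lower by 2.79-fold (log2 difference -1.48 ± 0.0768, limma adjusted p = 5.11e-14), Irs1 by 2.60-fold (-1.38 ± 0.0849, 1.63e-12), Igf1 by 2.09-fold (-1.07 ± 0.0675, 2.81e-12) and Igfbp4 by 2.03-fold (-1.02 ± 0.0649, 3.03e-12). The differences were -0.64 for Pik3r1, -0.52 for Foxo1, -0.39 for Irs2 and -0.37 for Igf1r. Insr (0.08, 95% interval -0.10 to 0.26) and Igfbp5 (0.04, -0.17 to 0.24) did not pass. Nor did the dimmer Irs1 probe set (-0.25, adjusted p = 0.183 in the fit of every probe set).

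Adipocyte markers moved with this comparison: all 9 measured were lower in ISL1 cells at 0 h (median -2.05), and Adipoq, the adiponectin gene, was 6.56 against 10.76. Of 7 fibroblast and preadipocyte markers 5 were lower, beside 10.4% of all genes. Their part in the members' differences was not tested. Of the wider lists, 15 of 78 genes were higher and 22 lower. The widest differences were -4.22 ± 0.0781 for Grb10, an adaptor that inhibits both receptors, -3.79 ± 0.0794 for the ligand Igf2 and 1.41 ± 0.072 for Tbc1d1, another AKT substrate.

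At 48 h the means of the 2 labelled groups lay within 0.36 of each other for each of these 10 genes. Between labelled ISL1 and labelled vector, 4 members were higher and 0 lower, beside 27.9% of all genes called. Igfbp5 read 7.53, 7.56 and 7.53 against 7.08, 7.29 and 7.16, Irs1 10.18, 9.94 and 10.05 against 9.84, 9.58 and 9.78, and Foxo1 11.04, 10.91 and 10.90 against 10.68, 10.48 and 10.77. The groups did not overlap for these 3, nor for Igf1, Irs2 and Pik3r1, which did not pass. Of all genes, 34.5% had groups that did not overlap. The differences for Igfbp5, Irs1 and Foxo1 were 0.36 ± 0.0981, 0.32 ± 0.0849 and 0.31 ± 0.0811 (limma adjusted p = 0.00544, 0.00448 and 0.004). Averaged over both Irs1 probe sets the Irs1 difference was 0.11 (adjusted p = 0.427). Igf1r read 10.59, 10.30 and 10.36 against 10.31, 9.97 and 10.19, which overlap, a difference of 0.26 (adjusted p = 0.0383). That call was lost without labelled ISL1 replicate 1 (0.18, adjusted p = 0.232), without labelled vector replicate 2 (0.17, 0.238) or replicate 3 (0.28, 0.0616), and under median centring (0.24, 0.0676).

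The other 6 did not pass between the 48 h groups. The 95% intervals were 0.02 to 0.30 for Igf1, 0.04 to 0.36 for Igfbp3, -0.01 to 0.26 for Igfbp4, -0.19 to 0.17 for Insr, -0.03 to 0.34 for Irs2 and -0.01 to 0.22 for Pik3r1. Igfbp3 passed without labelled vector replicate 3 (0.29, adjusted p = 0.00501), and Igf1 and Igfbp3 passed under quantile normalization (0.17 and 0.21). Both also passed in limma with robust variances (adjusted p = 0.0296 and 0.0192), and Igfbp3 with the filter on dim genes (adjusted p = 0.0489). Of the wider lists, 16 of 78 genes were higher in labelled ISL1 and 28 lower. Igf2 read 12.25, 12.19 and 12.26 in the arrays labelled ISL1 and 8.07, 8.28 and 8.52 in those labelled vector, and Grb10 11.18, 11.07 and 11.10 against 6.96, 7.10 and 7.27. These 2 genes were higher by 3.95 ± 0.0794 and 4.01 ± 0.0781 in labelled ISL1, opposite to the direction between ISL1 and vector cells at 0 h. As with Isl1, the arrays labelled vector were nearer to ISL1 cells at 0 h (means 9.02 for Igf2 and 7.27 for Grb10). Those labelled ISL1 were nearer to vector cells at 0 h (12.81 and 11.49). The insulin-responsive glucose transporter gene Slc2a4 was higher by 1.16 ± 0.0769. Differences in the other direction were -1.10 ± 0.0866 for Phlpp1, -1.08 ± 0.0773 for the adaptor gene Gab2 and -0.92 ± 0.0919 for Grb14, a relative of Grb10. All 9 adipocyte markers were higher in labelled ISL1 (median 1.47, Adipoq 10.84 against 7.23), beside 14% of all genes. The part of the markers was not tested.

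**Figure D3:**
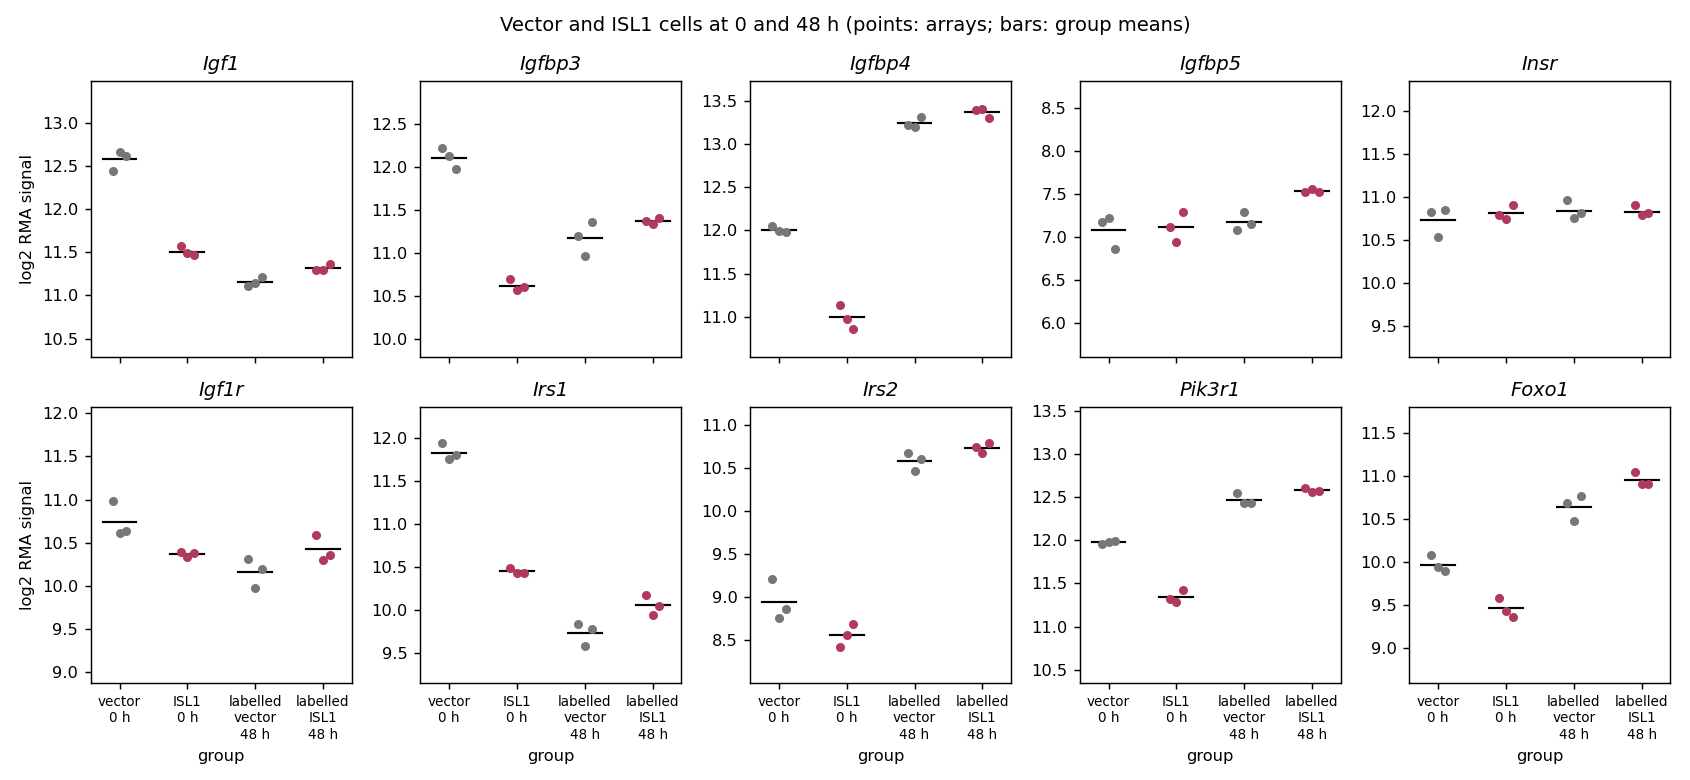
Log2 RMA signal (vertical axes, same range in each panel) of the 10 genes in vector and ISL1 cells at 0 h and in both labelled groups at 48 h, with a point per array and a bar at each mean of 3 arrays. Igfbp3, Igf1, Irs1 and Igfbp4 are lower in ISL1 cells at 0 h, and the 48 h groups lie within 0.36 of each other for every gene.

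Both 48 h groups differed from both 0 h groups. Against vector 0 h, 4 members were higher and 4 lower in labelled vector (36.8% of all genes called), and 5 higher and 4 lower in labelled ISL1 (41.4%). Against ISL1 0 h, 6 were higher and 2 lower in labelled ISL1 (43.1%), and 5 higher and 2 lower in labelled vector (33.2%). These comparisons share arrays. Igfbp4 was higher in all of them, with 13.23, 13.20 and 13.32 in labelled vector and 13.40, 13.41 and 13.30 in labelled ISL1; its differences were 1.24 and 1.36 from vector 0 h and 2.26 and 2.38 from ISL1 0 h. Irs2 was higher by 1.64 and 1.79 than in vector 0 h and by 2.02 and 2.18 than in ISL1 0 h. Irs1 stayed low, with differences of -2.10 and -1.77 from vector 0 h and -0.72 and -0.40 from ISL1 0 h. In the dimmer Irs1 probe set only labelled ISL1 against vector 0 h passed (-0.33, adjusted p = 0.0404 in the fit of every probe set).

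The direction for Igfbp3 turned with the starting group. It was lower than in vector 0 h, by -0.93 ± 0.0768 in labelled vector and -0.73 in labelled ISL1, and higher than in ISL1 0 h, by 0.55 and 0.75. Igf1 was lower than in vector 0 h (-1.42 and -1.26) and, by less, than in ISL1 0 h (-0.35 and -0.19). The last value was lost without labelled ISL1 replicate 1 (-0.18, adjusted p = 0.0599) or replicate 2 (-0.18, 0.0617), without ISL1 0 h replicate 1 (-0.16, 0.106), and under median centring (-0.16, 0.0855). Pik3r1 was higher than in vector 0 h by 0.50 and 0.60 and Foxo1 by 0.67 and 0.98. Igf1r was lower than in vector 0 h by -0.58 and -0.32, the second of which was lost without vector 0 h replicate 1 (-0.20, adjusted p = 0.0954); labelled vector against ISL1 0 h (-0.21, adjusted p = 0.0968) passed without labelled vector replicate 1 (-0.28, 0.0364). Igfbp5 was higher in labelled ISL1 by 0.45 than in vector 0 h and by 0.42 than in ISL1 0 h. Insr passed in none of the 4 comparisons, with differences from 0.02 to 0.11. Fibroblast and preadipocyte markers were lower at 48 h in both groups (6 and 7 of 7 against vector 0 h). All 9 adipocyte markers were higher in both than in ISL1 0 h (median 1.26 in labelled vector, 3.43 in labelled ISL1). Against vector 0 h, 3 adipocyte markers were higher and 3 lower in labelled vector (median 0.06). In labelled ISL1, 8 were higher and 0 lower (median 1.38). The part of these markers in the members' differences was not tested.

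**Figure D4:**
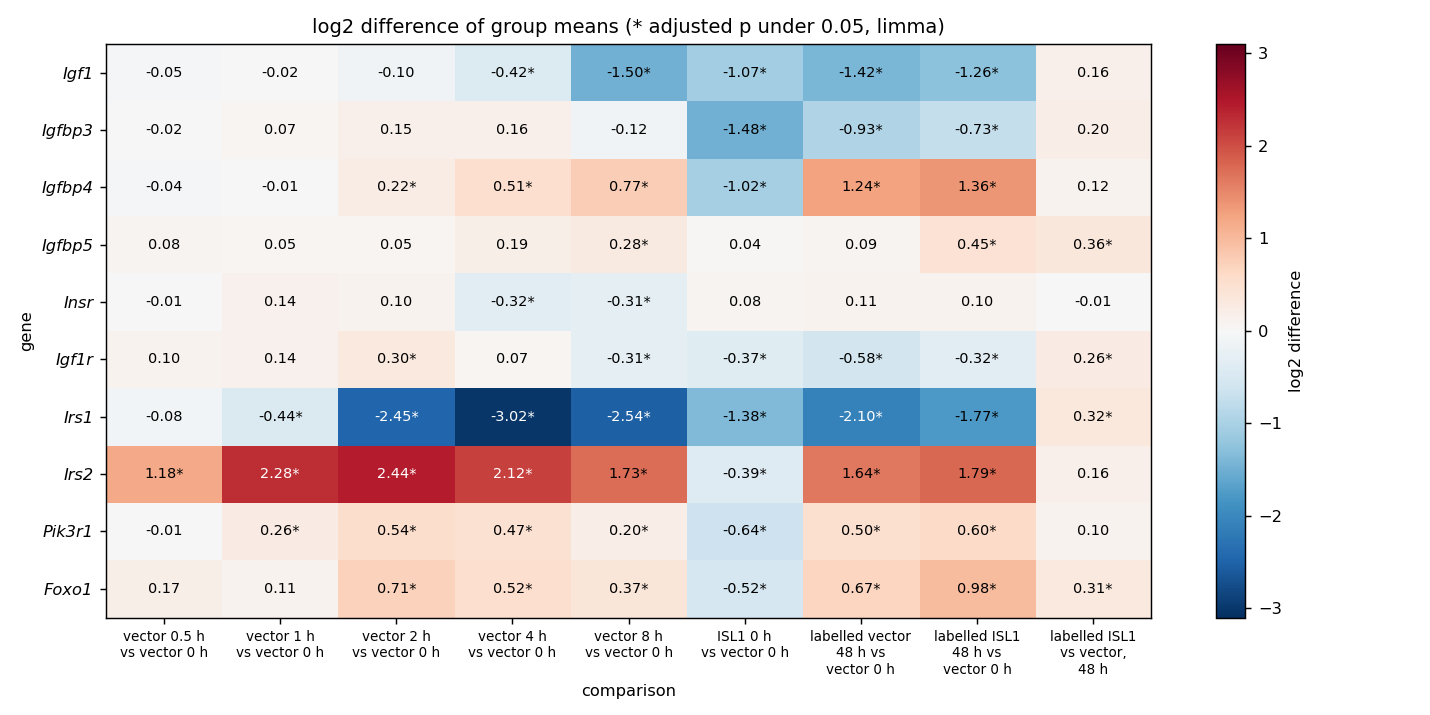
Log2 difference of group means for the 10 genes (rows) in 9 comparisons (columns), printed in each cell and coloured from blue (lower) to red (higher), with a star where the limma adjusted p is under 0.05. The column for ISL1 at 0 h is blue or pale, with 8 stars, and the last column holds no value above 0.36.

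The effect of the construct was also compared between the times. As labelled, the difference between ISL1 and vector cells was larger at 48 h than at 0 h, by the signed value, for 8 members and smaller for 0 (29.0% of all genes called). With the 48 h labels exchanged the counts were 5 and 1 (24.5%). Igfbp3 (1.68 ± 0.109 as labelled, 1.28 exchanged), Irs1 (1.70 ± 0.12, 1.06), Igf1 (1.23 ± 0.0954, 0.90), Igfbp4 (1.14 ± 0.0918, 0.90) and Pik3r1 (0.74 ± 0.0819, 0.53) passed either way. For these 5 genes the difference between ISL1 and vector cells ran from -1.48 to -0.64 at 0 h, and that between labelled ISL1 and labelled vector from 0.10 to 0.32 at 48 h.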

How the data were processed

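RNA of 27 samples was measured on 1 array each. The authors deposited log2 values made by RMA, per the submitters' processing notes; the base was read from the values (3.35 to 14.85), while the sources used here do not give software, version or build. Values were used as deposited. Of 28853 probe sets, 21789 had 1 gene symbol in the platform table, 1621 several and 5443 none; the brightest probe set of each symbol was kept (999 genes had more than 1), which left 19938 genes. For 21698 probe sets the Entrez ID was found in RefSeq's gene table, and the symbol given there was used. limma 3.58.1 in R 4.3.3 fitted 1 mean per group to all 27 arrays (lmFit, eBayes, two-sided), with Benjamini-Hochberg adjustment within each of 17 comparisons and an F test, threshold 0.05. The procedure was tested on simulated data.

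The members and lists were chosen with earlier results of these data known. Of each list, up to 3 genes with the largest called rise and 3 with the largest fall could be named. Likeness was Pearson's r over the 9 group means. Other pathway genes are described by counts and medians. Alternatives covered median centring, quantile normalization, a filter on dim genes (highest group mean at least 6), robust variances, every or averaged probe sets, a replicate block, pairwise fits and leaving out each array. Median centring over all probe sets and a fit without the 48 h arrays were added after seeing the data. The main fit did not pair samples by replicate number. After group means were removed, all 3 correlations of same-numbered arrays were over 0.1 in 4 of 36 pairs of groups. Single correlations ran from -0.63 to 0.62 (median 0.01). With 3 arrays per group this check cannot exclude pairing. No arrays were identical, and arrays of a group correlated at 0.9931 to 0.9986. Detection calls were not used here.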

Additional observations from a re-analysis of the deposited data

Results flagged for a closer look

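The difference between ISL1 and vector cells changed from 0 h to 48 h for several members, by a limma interaction term (48 h minus 0 h, log2). As labelled, the change was 1.23 for Igf1, 1.68 for Igfbp3, 1.14 for Igfbp4, 0.64 for Igf1r, 1.70 for Irs1, 0.54 for Irs2, 0.74 for Pik3r1 and 0.83 for Foxo1 (adjusted p from 2.57e-12 to 0.00167). With the 48 h labels exchanged it was 0.90 for Igf1, 1.28 for Igfbp3, 0.90 for Igfbp4, 1.06 for Irs1, 0.53 for Pik3r1 and -0.40 for Igfbp5 (adjusted p from 9.13e-10 to 0.035). Igf1r (0.11), Irs2 (0.23) and Foxo1 (0.21) did not pass with the labels exchanged, although Foxo1 did under quantile normalization (0.29, adjusted p = 0.00418), and Igfbp5 did not pass as labelled (0.33, adjusted p = 0.0828). The Igfbp5 value with exchanged labels rests on single arrays: it lost its call without any of the 3 arrays labelled ISL1 at 48 h, labelled vector 48 h replicate 1 or 3, vector 0 h replicate 3, or ISL1 0 h replicate 1 or 3, with values from -0.41 to -0.29. As labelled, it passed without vector 0 h replicate 3 (0.44, adjusted p = 0.016) or ISL1 0 h replicate 3 (0.41, adjusted p = 0.0321).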

How the results depend on the processing

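Counts of members called were recomputed 305 times over 18 results, and 304 of these stayed within 1.5 times the reported count. The exception was 1 h against 0.5 h in vector cells, where the fit on the groups of that comparison alone called 1 member against 3. No called member value changed sign under any alternative run. Outside the runs that left out an array, 1592 member values kept their side of the threshold, 21 gained a call and 17 lost it; with an array left out, 1105 kept it, 6 gained and 29 lost. The replicate block changed 1 member call, Igf1r from 2 to 4 h (-0.23, adjusted p = 0.0448), which also passed without vector 2 h replicate 2 (-0.29, adjusted p = 0.0451).

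Median centring was run over probe sets with 1 symbol, as planned, and again over all probe sets, a version added after seeing the first one's results. The choice matters for all-gene splits: at 8 h, genes called higher made up 52.5% of calls as deposited, 65.1% with the planned centring and 52.9% with the added one. At 4 h it was 43.3%, 61.1% and 49.8%, and at 1 h 39.3%, 55.4% and 51.8%. The planned version shifted values by up to 0.093 log2 units and the added one by up to 0.052. In the added fit without the 48 h arrays, Igfbp3 at 4 h and Igf1r from 2 to 4 h gained a call and no call of a member was lost. Over all genes, the pairwise fit called 912 genes at 1 h against 0 h and 398 against 0.5 h, where the fit of all groups called 1410 and 718. Signals near background were not separated from expression, which bears most on Igfbp5 and the dim Irs1 probe set.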
